A study of Mus musculus with 6 samples.

Results

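Matrix metalloproteases, ADAM and ADAMTS proteases, HtrA proteases and the inhibitors and serpins that accompany them were examined in the radii and ulnae of newborn mice, 129sv strain. The members were the genes whose platform symbol began with Mmp, Timp, Adam, Adamts (Adamtsl included), Serpin (clades a to i) or Htra followed by the family's number or letter, apart from Mmp9 and Serpina3n, which the rule leaves out. There were 34 such genes with 48 probe sets, of 5780 named genes and 8997 probe sets in all, and each gene was represented by its brightest probe set.

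The 3 mutant samples came from mice with the Tnni2 del175k mutation and the 3 others from their wild-type littermates, and all were of the same age, strain and tissue per the labels. Tnni2 encodes the troponin I of fast skeletal muscle. Total RNA was hybridised to 1-colour Affymetrix arrays that cover whole transcripts, and values are probe set intensities in arbitrary units. The labels give neither the zygosity or sex of the mice, nor whether 1 array held 1 mouse, so the p-values rest on the spread between samples that may be in part technical.

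Cartilage and bone are remodelled at the growth plate, where secreted collagenases and gelatinases open the mineralised cartilage to vessels and bone-forming cells. Metalloproteases are made as inactive proenzymes and are held in check by the tissue inhibitors of metalloproteases (TIMPs). ADAM proteases sit in the cell membrane and release the outer parts of other membrane proteins, while the secreted ADAMTS proteases cut proteoglycans and procollagens. Serpins are mostly suicide inhibitors of serine proteases, although some have lost that activity, and HtrA proteins are serine proteases.

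The array of wild-type replicate 1 was dimmer than the rest. Its median intensity was 39.6, against 45.5 to 48.4 on the other 5 arrays, and it gave the lowest of the 6 values for 50% of all probe sets and for 20 of the 34 members. Values without that array are therefore given beside the main ones. Every probe set in the table reached an intensity of 20 on at least 3 arrays, so dim genes had been filtered out before deposit by a rule that the labels leave out. Of the members, 8 had a value under 20 on some array, and 0 had all 3 values of a group under 20. Bone and cartilage markers were bright in both groups: Col1a1, the main chain of bone collagen, was at 7321, 7331 and 7785 in mutant bone, against 6552, 7807 and 7552 in wild-type bone. Col2a1, its cartilage counterpart, was at 3603, 3715 and 3329.6 in mutant bone, against 2539.7, 3701 and 4002 in wild-type bone. Markers of epidermis differed in sum between arrays, at 75.3, 460.4 and 51.3 on the mutant arrays and 1798, 1248 and 47.3 on the wild-type arrays, and those of skeletal muscle were at 4745, 5104 and 6658 on the mutant arrays and 3861, 5984 and 7821 on the wild-type arrays.

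No member passed the test across all probe sets. With limma, 0 of 8997 probe sets (0.0%) had an adjusted p under 0.05, and the members' adjusted p-values lay between 0.591 and 0.993. At an unadjusted p under 0.05 limma listed 2 members, Mmp13 and Adamts3, both higher in the mutants, against 7.44% of all probe sets (5.74% higher and 1.7% lower). For 34 genes this is a share close to the background. The 3 mutant values lay above the 3 wild-type values in 3 members (Mmp13, Mmp2 and Adamts3), where 9.18% of all probe sets did so, and below them in 3 members (Adam15, Adamts17 and Adamts4), where 3.89% did so.

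Of the 34 members, 25 had a higher mean log2 intensity in mutant than in wild-type bone and 9 a lower one, where 56.7% of all probe sets were higher. The median log2 difference, mutant minus wild-type, was 0.13 over the members and 0.045 over all probe sets. Without wild-type replicate 1 the members were divided into 18 higher and 16 lower, with a median of 0.030 against -0.033 over all probe sets, of which 44.7% were higher. At an unadjusted p under 0.05 limma then listed 1 member, Mmp13, as higher (3.2% of all probe sets) and 2, Adamts4 and Adam19, as lower (3.41%), 3 in all against 6.61%. The groups were apart with the mutants above in 3 members (10.7% of all probe sets) and below in 5 (12.5%). After quantile normalization or median centring of the arrays 21 of 34 were higher. Single members are given with and without the dim wild-type array.

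**Figure D1:**
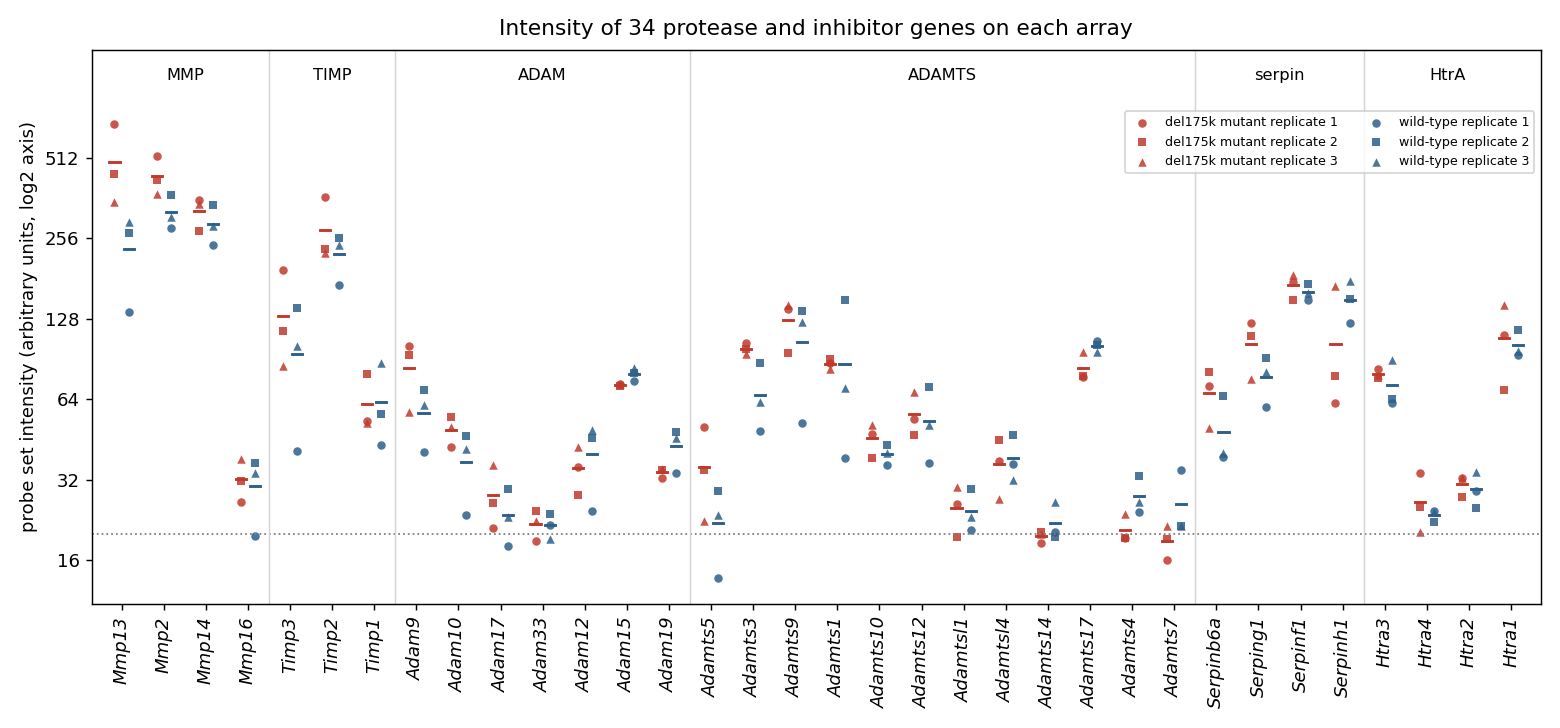
Probe set intensity (arbitrary units, log2 axis) of the 34 genes on each of the 6 arrays, by family. Red symbols are del175k mutant and blue symbols wild-type samples, circles, squares and triangles are replicates 1, 2 and 3, short bars are group means, and the dotted line marks an intensity of 20. The mutant and wild-type symbols are fully apart in 6 genes, 3 in each direction, and the blue circle of wild-type replicate 1 is the lowest symbol in 20 of the 34.

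**Figure D2:**
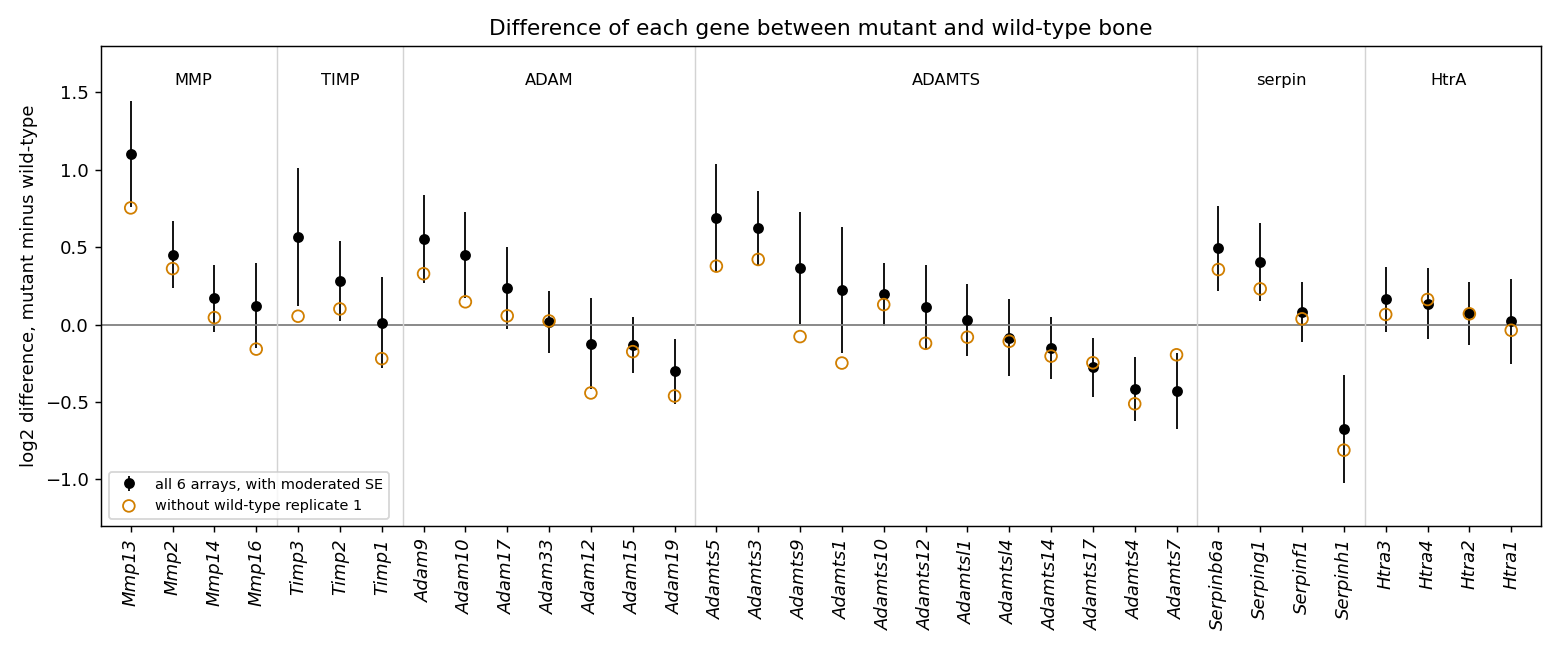
Log2 difference, mutant minus wild-type, of each gene over all 6 arrays (black points, with the moderated SE of limma as bars) and without wild-type replicate 1 (open circles). Mmp13 lies highest at 1.10 and Serpinh1 lowest at -0.67, and the open circles of Timp3, Adamts9 and Adamts1 lie far below their black points.

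Among the matrix metalloproteases proper, Mmp13 showed the widest difference of all 34 members. It encodes collagenase 3, which cuts fibrillar collagens and is made in the growth plate by hypertrophic chondrocytes and in bone by osteoblasts. Its intensity on replicates 1, 2 and 3 was 685, 445 and 351 in the mutant samples, against 136, 269 and 295 in the wild-type samples. Values by array are for replicates 1, 2 and 3 of a group in turn. The lowest mutant value lay above the highest wild-type value, but the range within the mutants was wider than the difference between the 2 means. The means were 494 ± 172 in the mutant samples and 233 ± 85.2 in the wild-type samples (SD, n = 3 each), a log2 difference of 1.10 ± 0.34 (SE, limma adjusted p = 0.591), or 2.15-fold. It was the 1 member with a difference of at least 1 on this scale, where 1.33% of all probe sets had one. Without wild-type replicate 1 the difference was 0.75, and the groups did not overlap either.

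The promoter of Mmp13 is shown because this gene differed most and its start region holds sites of the kind that AP-1 and Runx factors bind, both known from studies of the mouse gene to drive it in bone. The 300 bases at chr9:7272264-7272563, plus strand, GRCm38.p6, run from 250 before to 50 after the RefSeq start. Capitals mark matches to TGANTCA (AP-1), to TGTGGT or its reverse complement ACCACA (Runx), and to TATAAA (the TATA box).
Mmp13: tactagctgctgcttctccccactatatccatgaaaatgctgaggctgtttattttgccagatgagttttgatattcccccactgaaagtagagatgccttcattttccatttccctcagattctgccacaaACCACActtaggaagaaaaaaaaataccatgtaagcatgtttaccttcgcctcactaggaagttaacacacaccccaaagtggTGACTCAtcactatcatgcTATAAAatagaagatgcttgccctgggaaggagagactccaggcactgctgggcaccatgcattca
The match to AP-1 begins 35 bases before the start, that to Runx 118 bases before and that to the TATA box 16 bases before, and none of the 3 overlap. On either strand, the AP-1 letters occur in 7.81% of the 32851 promoters of this length in the table, the Runx letters in 16.8% and TATAAA in 13.6%. The table held promoters for 21 of the 34 members, of which 2 held the AP-1 letters (Mmp13 and Adam19), 6 the Runx letters and 2 the TATA letters (Mmp13 and Adamts1). A member was counted when any of its promoters held the letters, and 2 members had several promoters. The shares above are of single promoters, so the units differ. A match describes the letters and does not show that a factor binds.

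Genes of the factors named here were read from a list of 23 transcription factors known to act on matrix protease genes, of which 18 were measured (Runx2 was not analysed here). In this list 13 had a higher mean in the mutants and 5 a lower one (median log2 difference 0.20), where 56.7% of all probe sets were higher, and 0 passed at an adjusted p under 0.05. At an unadjusted p under 0.05 in limma, 2 were higher and 0 lower, against 5.74% and 1.7% of all probe sets. These were Foxo1 and Foxo3, forkhead factors restrained by insulin signalling. Foxo1 was at 45.9, 52.4 and 30.6 in mutant bone, against 17.7, 23.4 and 29.3 in wild-type bone (log2 difference 0.87 ± 0.27, limma adjusted p = 0.591, 0.68 without wild-type replicate 1). Foxo3 was at 138, 105 and 67.3 in mutant bone, against 31.9, 68.4 and 48.5 in wild-type bone (1.07 ± 0.34, limma adjusted p = 0.591, 0.78 without wild-type replicate 1). All mutant values of Foxo1 lay above those of the wild-type, while in Foxo3 mutant replicate 3 lay just under the highest wild-type value. The AP-1 gene Jund was at 98.4, 103 and 123 in mutant bone, against 124, 201 and 142 in wild-type bone, lower on each mutant array. Fosb was dominated by the single value of wild-type replicate 2, at 18.1, 38.2 and 40.3 in mutant bone, against 28.2, 334 and 23.3 in wild-type bone. The other measured AP-1 genes overlapped between the groups and lay on both sides. Jun (0.38) and Fosl2 (0.28) had higher and Fos (-0.035) and Junb (-0.18) lower mutant means. Leaving out wild-type replicate 1 gave 0.081, 0.063, -0.090 and -0.16 in turn. Without wild-type replicate 1 the list held 8 higher and 10 lower, where 44.7% of all probe sets were higher, and 2 as higher (Foxo1 and Foxo3) and 1 as lower (Jund) at an unadjusted p under 0.05 in limma, against 3.2% and 3.41%.

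Mmp2, or gelatinase A, degrades denatured collagen and type IV collagen. Its intensity was 520.0, 424 and 374 in the mutant samples, against 280.3, 372 and 308 in the wild-type samples, with no overlap between the groups. The highest wild-type value was less than 2 units from the lowest mutant value. The means were 439 ± 74.4 in the mutant samples and 320.2 ± 47.1 in the wild-type samples (SD, n = 3 each), a log2 difference of 0.45 ± 0.21 (SE, limma adjusted p = 0.69) that was 0.36 without wild-type replicate 1.

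The membrane-anchored Mmp14, which activates pro-Mmp2 at the cell surface and cuts collagen itself, overlapped between the groups. It was at 355, 272 and 344 in the mutant samples, against 241, 341 and 285 in the wild-type samples, a log2 difference of 0.17 ± 0.22 (limma adjusted p = 0.848) that was 0.045 without wild-type replicate 1. Mmp16, another membrane-type enzyme, was dim, at 26.4, 31.6 and 38.2 in the mutant samples, against 19.8, 36.9 and 34.0 in the wild-type samples. Its difference of 0.12 was at -0.16 without wild-type replicate 1, so its sign was not kept. Thus the 4 metalloproteases among the members all had a higher mutant mean with all arrays, where 56.7% of all probe sets were higher. Without that array 3 of the 4 were higher, where 44.7% of all probe sets were.

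Markers of osteoclasts, hypertrophic chondrocytes and osteoblasts were read beside these enzymes. Of 12 osteoclast markers 8 were measured. Of these 7 had a higher and 1 a lower mutant mean, where 56.7% of all probe sets were higher. Without wild-type replicate 1 there were 8 higher and 0 lower, where 44.7% of all probe sets were higher. Their summed intensity was 1939.9, 1402 and 1750.0 on the mutant arrays and 784, 1029 and 1261 on the wild-type arrays, so every mutant sum exceeded every wild-type sum. Taken singly, 9.18% of all probe sets had every mutant value above every wild-type value. Most of the sum came from 3 genes, so it mainly repeats their values. They were also the 3 at an unadjusted p under 0.05 in limma, against 7.44% of all probe sets. Ctsk, the collagen-degrading cathepsin of osteoclasts, was at 581, 300.3 and 438 in mutant bone, against 117, 238 and 244 in wild-type bone (1.16 ± 0.34, limma adjusted p = 0.59, 0.82 without wild-type replicate 1). Acp5, the tartrate-resistant acid phosphatase, was at 397, 366 and 457 in mutant bone, against 196, 237 and 319 in wild-type bone (0.72 ± 0.23, limma adjusted p = 0.595, 0.56 without wild-type replicate 1). Mmp9, the gelatinase of osteoclasts, was at 692, 485 and 629.5 in mutant bone, against 262, 359 and 444 in wild-type bone (0.78 ± 0.25, limma adjusted p = 0.595, 0.58 without wild-type replicate 1). Tcirg1, a subunit of the proton pump, had groups that did not overlap (0.48 ± 0.21), while Ocstamp (0.22), Itgb3 (0.36) and Clcn7 (0.26) overlapped. Without wild-type replicate 1 they were at 0.33, 0.15, 0.17 and 0.069 in turn. Car2, a carbonic anhydrase, was on the other side, at 37.2, 46.5 and 34.1 in mutant bone, against 79.4, 23.1 and 61.7 in wild-type bone (-0.31, or 0.045 without wild-type replicate 1). Calcr, Oscar, Dcstamp and Atp6v0d2 were not analysed here, and no measured marker was at 0.

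Of 7 hypertrophic chondrocyte markers 6 were measured, Mmp13 among them. Without Mmp13 the sum of the other 5 was 1015, 1047 and 1509 on the mutant arrays and 657, 1192 and 1109 on the wild-type arrays, and the groups overlapped. Each of the 5 overlapped too. Col10a1, the collagen of hypertrophic cartilage, was at 459, 437 and 493 in mutant bone, against 243, 405 and 465 in wild-type bone (0.37, or 0.092 without wild-type replicate 1). Ihh, a signal of prehypertrophic cells, was at 29.0, 24.3 and 34.0 in mutant bone, against 42.3, 31.5 and 45.4 in wild-type bone (-0.45, or -0.39 without wild-type replicate 1). Ibsp (0.36) and Alpl (0.14) had higher and Pth1r (-0.0098) a lower mutant mean. Without wild-type replicate 1 they were at 0.057, -0.020 and -0.30 in turn. Of 8 osteoblast markers 5 were measured. Of these 2 had a higher and 3 a lower mutant mean (median -0.13), where 56.7% of all probe sets were higher. Without wild-type replicate 1 there were 1 higher and 4 lower (median -0.32), where 44.7% were higher. At an unadjusted p under 0.05 limma listed 0 of the 5, and without that array 1 as lower (3.41% of all probe sets). Those of smallest p were Smpd3 (-0.65, or -0.85 without that array) and Dlx5 (0.36, or 0.37). The part of any of these cell types in the Mmp13 difference was not tested. In whole bone more cells of a type cannot be told apart from more RNA in each cell.

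Measured markers of other limb tissues numbered 9 for chondrocytes, 8 each for myeloid cells and muscle, and 6 each for epidermis and tendon. There were 4 each for mast cells and endothelium, 2 for red cells and 1 for fat cells. Of these genes limma listed 5 at an unadjusted p under 0.05, against 7.44% of all probe sets (5.74% higher and 1.7% lower), and 0 passed after adjustment. Kit and Mcpt4, both of mast cells, lay on opposite sides (0.48 ± 0.20 and -0.47 ± 0.20) and were dim, at most 29.8 on any array. All 3 wild-type values of Kit were under 20 (17.9, 18.9 and 17.7). Kit thus reached the level of 20 on the mutant arrays alone, and its difference cannot be told apart from the filter before deposit. Ramp2 of endothelium was at 80.4, 91.8 and 72.1 in mutant bone, against 52.2, 51.8 and 63.4 in wild-type bone (0.54 ± 0.20), and Alas2 of red cells at 205, 106 and 88.4 in mutant bone, against 75.3, 62.4 and 89.8 in wild-type bone (0.73 ± 0.31). Lor of the epidermis averaged 12.5 ± 10.9 in mutant bone and 72.0 ± 56.3 in wild-type bone (SD, n = 3 each, log2 difference -2.20 ± 0.90), with wild-type replicate 3 at 8.73. Without wild-type replicate 1 the log2 differences were 0.47 for Kit, -0.42 for Mcpt4, 0.50 for Ramp2, 0.73 for Alas2 and -1.70 for Lor. In lists with 0 such genes those of smallest p are given with all arrays and then without that array. They were Hapln1 (0.44 and 0.16) and Matn1 (0.31 and 0.17) of chondrocytes, and Lcn2 (0.79 and 0.91) and S100a8 (0.45 and 0.39) of myeloid cells. In muscle they were Myh3 (0.31 and -0.14) and Mylpf (-0.16 and -0.47), and in tendon Scx (-0.55 and -0.62) and Tnmd (-0.31 and -0.25). In fat cells the 1 measured gene was Fabp4 (0.23 and 0.16). Of the 8 muscle markers 2 were higher with all arrays and 0 without that array, where 56.7% and 44.7% of all probe sets were higher. The part of these tissues in the members' differences was not tested.

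The inhibitors Timp1, Timp2 and Timp3 all overlapped between the groups. Timp3, which binds to the matrix and also inhibits aggrecanases and ADAM17, was at 194, 115 and 84.8 in the mutant samples, against 41.0, 140.4 and 101 in the wild-type samples. Wild-type replicate 1 lay far below the other arrays. The log2 difference was 0.57 ± 0.45 (SE, limma adjusted p = 0.767) and 0.054 without wild-type replicate 1. Timp2, an inhibitor that also takes part in the activation of pro-Mmp2 by Mmp14, was at 364, 233 and 226 in the mutant samples, against 172, 257 and 242 in the wild-type samples. Only mutant replicate 1 exceeded the wild-type range, and the difference was 0.28 ± 0.26 (limma adjusted p = 0.787). Leaving out wild-type replicate 1 gave 0.10, and leaving out mutant replicate 1 gave 0.056. Timp1 was at 52.8, 79.4 and 52.2 in the mutant samples, against 43.2, 56.5 and 87.3 in the wild-type samples, with a difference of 0.013 that was -0.22 without wild-type replicate 1.

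Mutant replicate 1 gave the highest of the 6 values in Mmp13, Mmp14, Mmp2, Timp2 and Timp3, and in 10 of the 34 members, where it did so for 20.9% of all probe sets. In Mmp13, Mmp2, Timp2 and Timp3 mutant replicate 3 was the lowest of the mutants and nearest to the wild-type values or within them.

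**Figure D3:**
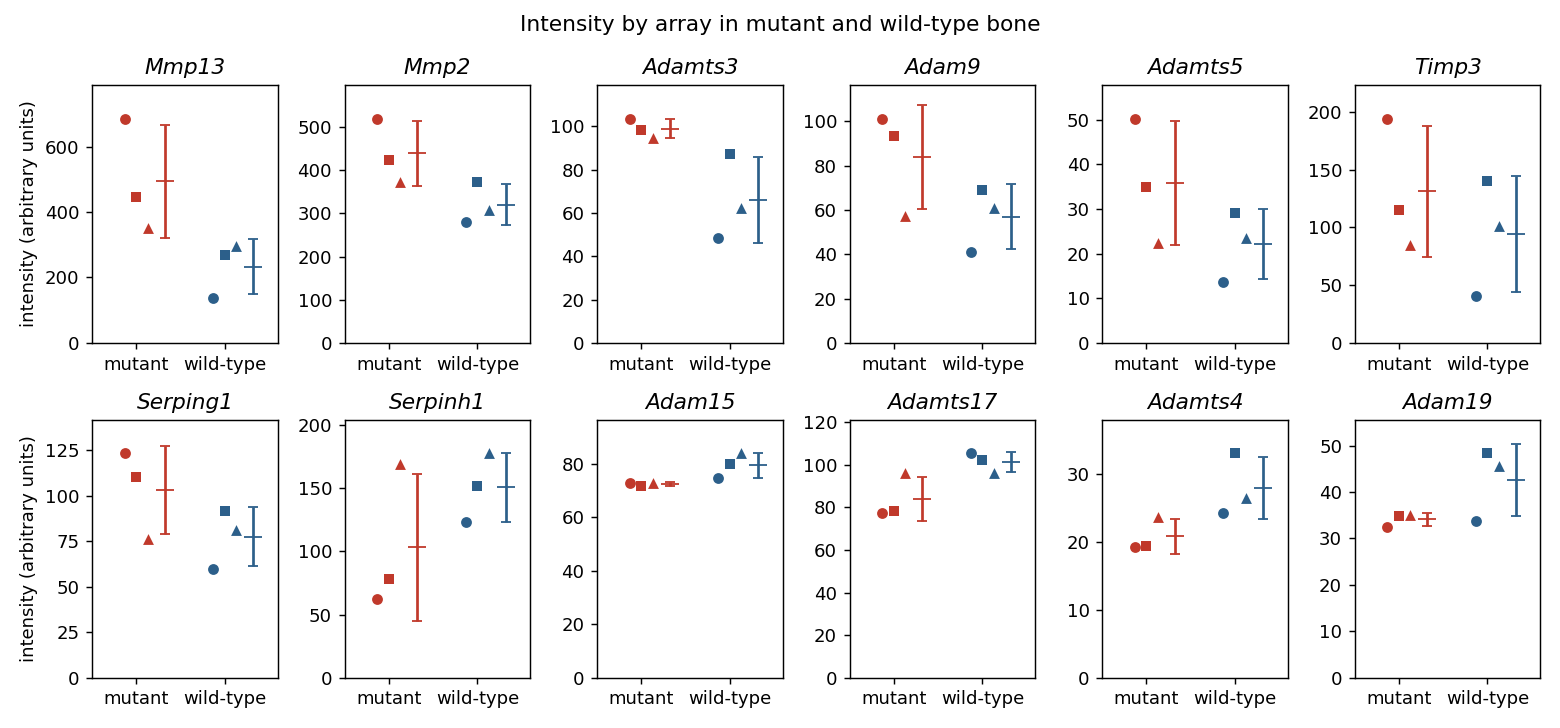
Intensity (arbitrary units, axes from 0) of 12 genes on each array, with mutant samples in red on the left and wild-type samples in blue on the right of each panel. Circles, squares and triangles are replicates 1, 2 and 3, and the bars beside them give mean ± SD (n = 3). Mmp13 runs from 351 to 685 in the mutants, above the highest wild-type value of 295, and Serpinh1 has mutant replicates 1 and 2 at 62.2 and 78.0, below every wild-type value, with replicate 3 at 169.7.

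The 7 ADAM genes were divided into 4 with a higher and 3 with a lower mutant mean, where 56.7% of all probe sets were higher. Adam33 changed sides after quantile normalization or median centring, and none of the 7 passed. Adam9, a membrane sheddase also called meltrin gamma, was at 101, 93.3 and 57.4 in the mutant samples, against 40.8, 69.2 and 61.0 in the wild-type samples. Mutant replicates 1 and 2 lay above all wild-type values and replicate 3 within them, and the log2 difference was 0.55 ± 0.28 (limma adjusted p = 0.708, 0.33 without wild-type replicate 1). Adam10, the sheddase that starts the cleavage of Notch receptors, was at 42.5, 54.7 and 50.3 in the mutant samples, against 23.6, 46.8 and 41.7 in the wild-type samples. Wild-type replicate 1 was its lowest value, and the difference of 0.45 was 0.15 without it. Adam17, which releases tumour necrosis factor and ligands of the EGF receptor, was at 21.0, 26.3 and 36.5 in the mutant samples, against 18.0, 29.5 and 23.2 in the wild-type samples, a difference of 0.24 that was 0.056 without that array.

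Adam19, Adam15 and Adam12 had lower mutant means. Adam19, or meltrin beta, was at 32.6, 34.8 and 35.1 in the mutant samples, against 33.8, 48.4 and 45.7 in the wild-type samples. Its mutant values differed by under 3 units, and wild-type replicate 1 lay among them, while the other two wild-type values were higher. The log2 difference was -0.30 ± 0.21 (limma adjusted p = 0.743) and -0.46 without wild-type replicate 1. Adam15 was at 72.8, 71.8 and 73.1 in the mutant samples, against 74.7, 79.9 and 84.0 in the wild-type samples, with no overlap. The difference was -0.13 ± 0.18 (limma adjusted p = 0.858, -0.18 without wild-type replicate 1). Adam12, or meltrin alpha, a gene of developing muscle and bone, ranged from 28.2 to 42.3 in the mutants and from 24.4 to 49.2 in the wild-type samples, and its difference of -0.12 was -0.44 without wild-type replicate 1. Adam33 lay between 18.9 and 24.4 in the mutants and between 19.2 and 23.9 in the wild-type samples, a difference of 0.017, or 0.023 without wild-type replicate 1.

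The ADAMTS family, with the ADAMTS-like genes Adamtsl1 and Adamtsl4 counted in, had 12 members. Of these 7 had a higher and 5 a lower mutant mean, where 56.7% of all probe sets were higher. Without wild-type replicate 1 these counts were 3 and 9, where 44.7% of all probe sets were higher. Adamtsl1 also changed sides after quantile normalization or median centring. Adamts3, an enzyme able to remove the amino-terminal propeptide of type II procollagen, had the smallest p of the family. Its brightest probe set was at 104, 98.4 and 94.8 in the mutant samples, against 48.5, 87.5 and 62.4 in the wild-type samples, or 98.9 ± 4.44 in the mutant samples and 66.1 ± 19.8 in the wild-type samples (SD, n = 3 each). The mutant values lay within 9 units of each other and above all wild-type values, and the log2 difference was 0.62 ± 0.24 (limma adjusted p = 0.665, 0.42 without wild-type replicate 1).

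This probe set was the widest apart of 10 that read Adamts3. All 10 had a higher mutant mean, with log2 differences between 0.19 and 0.62, but the groups were apart in 2 of them. In all 10 the lowest value was that of wild-type replicate 1. Without that array 7 of the 10 were higher, between -0.053 and 0.42, and the mean of the 10 over all arrays differed by 0.36 (limma adjusted p = 0.750). Probe sets of 1 gene read the same RNA and are not replicates.

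**Figure D4:**
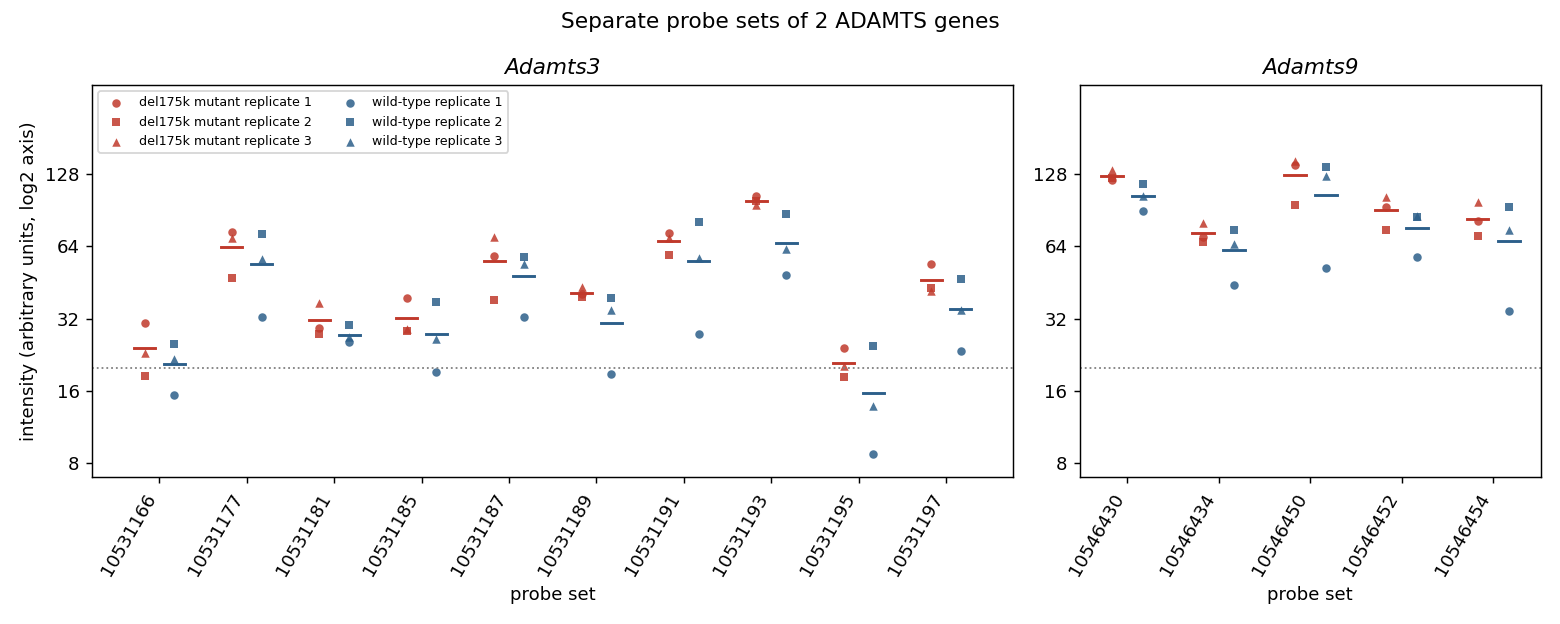
Intensity (arbitrary units, log2 axis) of each of the 10 probe sets of Adamts3 and the 5 of Adamts9 on the 6 arrays, in the colours and symbols of the panel of 12 genes, with short bars for group means and a dotted line at an intensity of 20. The blue circle of wild-type replicate 1 is the lowest symbol in all 15 probe sets, and red and blue are fully apart in 2 of Adamts3 and 1 of Adamts9.

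Adamts9, which cuts versican and aggrecan, was read by 5 probe sets, all with a higher mutant mean (0.26 to 0.41). Without wild-type replicate 1, 3 of the 5 were higher, between -0.078 and 0.20, and the brightest was the lowest of them. The brightest was at 139, 94.9 and 144 in the mutant samples, against 52.0, 137 and 125 in the wild-type samples, a difference of 0.37 ± 0.36 (limma adjusted p = 0.799) that was -0.078 without wild-type replicate 1. Adamts1, likewise a versicanase, ranged from 82.9 to 90.2 in the mutants, inside the wild-type range of 38.6 to 151, and its difference of 0.22 was -0.25 without that array.

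The 2 aggrecanases best known from joint cartilage lay on opposite sides. Adamts5, the main aggrecanase of mouse cartilage, was at 50.2, 34.9 and 22.4 in the mutant samples, against 13.7, 29.1 and 23.6 in the wild-type samples. Mutant replicates 1 and 2 exceeded all wild-type values and replicate 3 did not, and the log2 difference was 0.69 ± 0.35 (limma adjusted p = 0.708, 0.38 without wild-type replicate 1). Adamts4 was at 19.3, 19.4 and 23.7 in the mutant samples, against 24.3, 33.1 and 26.4 in the wild-type samples, a difference of -0.42 ± 0.21 (limma adjusted p = 0.705, -0.51 without wild-type replicate 1). All its mutant values lay below the wild-type values, but 2 of them were under 20, close to the level of the filter. Whether the 2 genes differ from each other in response was not tested.

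Adamts17, which in humans is mutated in a disorder of short stature and lens dislocation, was at 77.5, 78.4 and 96.1 in the mutant samples, against 105, 102 and 96.3 in the wild-type samples, with mutant replicate 3 less than 1 unit under the lowest wild-type value. Its difference was -0.28 ± 0.19 (limma adjusted p = 0.744, -0.25 without wild-type replicate 1), and that of its second, dimmer probe set was -0.34, with groups that overlapped. Adamts7 was at 16.0, 19.2 and 21.4 in the mutant samples, against 34.9, 21.5 and 21.4 in the wild-type samples, with wild-type replicate 1 far above the rest, and its difference of -0.43 was -0.20 without that array. Both Adamts7 and Adamts12 are able to cut cartilage oligomeric matrix protein. Adamts12 ranged from 46.9 to 68.2 in the mutants and from 37.1 to 71.2 in the wild-type samples (0.11, or -0.12 without wild-type replicate 1). The other members overlapped too: Adamts10 was at 0.19, Adamtsl1 at 0.028, Adamtsl4 at -0.084 and Adamts14 at -0.15 in log2 difference. Without wild-type replicate 1, Adamts10 was at 0.13, Adamtsl1 at -0.082, Adamtsl4 at -0.11 and Adamts14 at -0.20.

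The promoter of Adamts3 is shown beside that of Mmp13 because these were the 2 members at an unadjusted p under 0.05. It lies at chr5:89883285-89883584, minus strand, GRCm38.p6, from RefSeq, and is written in lower case because the 3 motifs of the Mmp13 promoter had no match in this window on either strand.
Adamts3: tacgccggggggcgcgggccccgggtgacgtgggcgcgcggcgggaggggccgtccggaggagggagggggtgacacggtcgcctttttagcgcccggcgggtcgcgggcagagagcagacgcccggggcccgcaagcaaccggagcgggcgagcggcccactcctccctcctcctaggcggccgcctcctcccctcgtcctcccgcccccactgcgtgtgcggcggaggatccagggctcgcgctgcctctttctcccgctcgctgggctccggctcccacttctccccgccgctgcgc
Of its bases 77.3% are G or C, against 43.7% in the Mmp13 promoter and a median of 52.7% over all promoters of this length. That the motif letters are missing from this window says nothing of the factors.

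Serpinh1 showed the widest difference in the lower direction among the members. It encodes Hsp47, a chaperone of the endoplasmic reticulum that binds newly made collagen and has no inhibitor activity. Its intensity was 62.2, 78.0 and 169.7 in the mutant samples, against 123, 152 and 178 in the wild-type samples. Mutant replicates 1 and 2 lay well below every wild-type value, while mutant replicate 3 lay between wild-type replicates 2 and 3. The means were 103 ± 58.1 in the mutant samples and 151 ± 27.3 in the wild-type samples (SD, n = 3 each), a log2 difference of -0.67 ± 0.35 (SE, limma adjusted p = 0.708). Leaving out wild-type replicate 1 gave -0.81. Leaving out mutant replicate 3 gave -1.10 (limma adjusted p = 0.226), and leaving out mutant replicate 1 gave -0.38 (limma adjusted p = 0.983).

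The collagens that Hsp47 serves did not show this order of the arrays. Col1a1, given above, was between 7321 and 7785 in the mutants. Col1a2, the second chain of type I collagen, was at 5431, 5201 and 5604 in mutant bone, against 4399, 5676 and 5404 in wild-type bone (0.077 ± 0.19, limma adjusted p = 0.936), and Col3a1 was at 1783, 1660.3 and 1433 in mutant bone, against 1547, 2131 and 1763 in wild-type bone. Of 23 substrates of these proteases in cartilage and bone matrix 21 were measured. Of these 14 had a higher and 7 a lower mutant mean (median difference 0.081), where 56.7% of all probe sets were higher. At an unadjusted p under 0.05 limma listed 0 of the 21, against 7.44% of all probe sets. Without wild-type replicate 1 there were 7 higher and 14 lower (median -0.039), where 44.7% of all probe sets were higher. In that fit limma listed 0 as higher and 1 as lower at an unadjusted p under 0.05, against 3.2% and 3.41%. With all arrays the substrates of smallest p were Matn1, or matrilin 1 of cartilage (0.31 ± 0.21, limma adjusted p = 0.735), and Col10a1 (0.37 ± 0.26, limma adjusted p = 0.746). Leaving out wild-type replicate 1 gave 0.17 and 0.092.

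The other serpins had higher mutant means. Serpinb6a, an intracellular inhibitor, was at 71.9, 80.7 and 49.8 in the mutant samples, against 38.8, 66.1 and 40.4 in the wild-type samples, a difference of 0.49 ± 0.28 (limma adjusted p = 0.709, 0.36 without wild-type replicate 1). Serping1, the inhibitor of complement C1 proteases, was at 123, 110.1 and 76.3 in the mutant samples, against 59.8, 91.6 and 81.2 in the wild-type samples (0.41 ± 0.25, limma adjusted p = 0.725, 0.23 without wild-type replicate 1). In both genes mutant replicates 1 and 2 lay above every wild-type value and replicate 3 lay among them. Serpinf1, or pigment epithelium-derived factor, whose loss in humans causes a form of brittle bone disease, differed least of the serpins. It was at 175, 150.3 and 186 in the mutant samples, against 151, 172 and 159 in the wild-type samples, a difference of 0.082 ± 0.19 that was 0.037 without wild-type replicate 1.

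The 4 HtrA genes had log2 differences between 0.022 and 0.16, and none passed. Htra1, secreted and able to cut matrix proteins, was at 111, 69.1 and 144 in the mutant samples, against 93.9, 116 and 97.0 in the wild-type samples, so that the mutant values alone spanned the whole wild-type range. Its difference of 0.022 was -0.037 without wild-type replicate 1 and was also below 0 after quantile normalization or median centring. Htra3, a related secreted protease, was at 83.1, 76.8 and 78.7 in the mutant samples, against 62.0, 64.2 and 90.0 in the wild-type samples (0.16 ± 0.21, or 0.065 without wild-type replicate 1). Htra2, which acts in mitochondria, was at 32.4, 27.5 and 32.5 in the mutant samples, against 29.1, 25.2 and 34.1 in the wild-type samples (0.073 ± 0.20, or 0.069 without wild-type replicate 1). Htra4 was at 33.8, 25.4 and 20.4 in the mutant samples, against 24.5, 22.2 and 24.2 in the wild-type samples (0.14 ± 0.23, or 0.16 without wild-type replicate 1), and the groups overlapped in all 4 genes.

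Other genes of the same system were read from lists of known members. Of 27 activators and other matrix proteases 12 were measured, 10 with a higher and 2 with a lower mutant mean (median 0.37, and 0.15 without wild-type replicate 1), where 56.7% of all probe sets were higher. At an unadjusted p under 0.05 limma listed 2 as higher and 0 as lower, against 5.74% and 1.7% of all probe sets, and 0 passed after adjustment. These were Ctsk, given above, and the lysosomal cathepsin gene Ctsl, at 159, 129 and 102 in mutant bone, against 65.2, 103 and 82.0 in wild-type bone (0.64 ± 0.25, limma adjusted p = 0.664, 0.48 without wild-type replicate 1). Furin, the convertase that activates Mmp14 and several ADAM and ADAMTS proenzymes, was at 137, 108 and 82.4 in mutant bone, against 50.3, 98.5 and 92.1 in wild-type bone (0.47 ± 0.30, limma adjusted p = 0.725, 0.17 without wild-type replicate 1).

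Of 23 other inhibitors, cofactors and receptors 11 were measured, 7 higher and 4 lower in mutant mean (median 0.22, and -0.034 without wild-type replicate 1), where 56.7% of all probe sets were higher. The 1 gene at an unadjusted p under 0.05 in limma, against 7.44% of all probe sets, was Spock2, which encodes the matrix proteoglycan testican 2. It was at 110.0, 90.8 and 39.2 in mutant bone, against 15.4, 39.9 and 21.0 in wild-type bone (1.64 ± 0.43, limma adjusted p = 0.559). Mutant replicates 1 and 2 were far above all wild-type values and replicate 3 lay just below the highest of them, and the difference was 1.34 without wild-type replicate 1. Reck, a membrane-anchored inhibitor of Mmp2, Mmp9 and Mmp14, was at 101, 94.1 and 89.3 in mutant bone, against 57.2, 113 and 83.4 in wild-type bone and overlapped. Cst3, or cystatin C, an inhibitor of cathepsins, was at 461, 551 and 374 in mutant bone, against 287, 343 and 358 in wild-type bone, higher on each mutant array (0.48 ± 0.22, limma adjusted p = 0.68, 0.38 without wild-type replicate 1).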

How the data were processed

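The authors deposited 1 table of linear intensities, with 1 value for each of 8997 probe sets on each of 6 arrays. Per the labels' protocols, RNA came from RNeasy columns, and cDNA made from amplified cRNA was fragmented and end-labelled. How background, summarisation and scaling were handled, and the genome build, is not given in the sources used here. The number of arrays limits the precision. Platform annotation of 2016 gave 1 symbol to 6398 probe sets, several to 576 and none to 2023. Symbols of all 34 members matched RefSeq (GRCm38.p6) by Entrez identifier.

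Intensities were taken as log2 with no further normalization or filter. A linear model of genotype was then run for every probe set (limma 3.58.1, R 4.3.3, functions lmFit and eBayes), two-sided, with Benjamini-Hochberg adjustment over all 8997 probe sets and a threshold of 0.05. Adjusted p-values are from this fit. The procedure was tested on simulated data. Tables and plots used Python 3.11.15, pandas 2.3.3 and matplotlib 3.10.9.

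The members and gene lists were chosen with earlier results of these data known, so no list was tested as a set. Values by array were given for the 4 members of smallest p and the 2 brightest of each family, and for members at an unadjusted p under 0.05 or with groups that did not overlap. From each other list, genes at an unadjusted p under 0.05 were named, or the 2 of smallest p where there were 0. Fos, Fosb, Fosl2, Jun, Junb, Jund, Furin, Reck and Cst3 were named after their values were seen. So were Col1a1, Col1a2, Col2a1, Col3a1, Car2, Tcirg1, Ocstamp, Itgb3, Clcn7, Col10a1, Ihh, Ibsp, Alpl and Pth1r. Alternatives were other scalings, a filter and a floor on dim values, array weights, a variance trend, a replicate block, the mean over a gene's probe sets, and leaving out each array.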

Additional observations from a re-analysis of the deposited data

How the results depend on the processing

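No member passed at an adjusted p under 0.05 in limma under any of the 14 alternatives, the lowest value being 0.205. The number of members at an unadjusted p under 0.05, 2 with all arrays, was 4 after quantile normalization (9.49% of all probe sets), 8 with array weights (15.7%) and 1 with the mean over a gene's probe sets (7.58%), and 1 to 8 with each array left out. It was 8 when mutant replicate 3 was left out (9.31%), 6 for wild-type replicate 2 (10.8%), 3 for wild-type replicate 1 (6.61%), and 1 for each of mutant replicate 1 (3.58%), mutant replicate 2 (4.37%) and wild-type replicate 3 (6.91%). Over all probe sets the adjusted count of 0 was 4 with array weights and 0 to 15 with each array left out, where the 15 came without mutant replicate 3. Members whose groups did not overlap, 6 with all arrays, numbered 7 to 13 with an array left out (13 without mutant replicate 3, 10 without mutant replicate 2), when fewer values have to be apart. Of the 8997 probe sets, 1176 did not overlap with all arrays, 2537 when mutant replicate 3 was left out and 1797 when mutant replicate 2 was. The members' median, 0.13 with all arrays, was 0.030 to 0.21 with each array left out and 0.0051 with array weights.

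Of the 34 members, 22 kept their sign under every alternative that held them, Mmp13, Mmp2, Adamts3 and Serpinh1 among them. The others changed sign somewhere, in 44 of 468 values. The alternative without the dimmest 25% of probe sets left out 8 members, whose sign was not read there. With quantile normalization Adam33 was at -0.053, Adamtsl1 at -0.054, Htra1 at -0.022 and Timp1 at -0.039. With median centring they were at -0.039, -0.028, -0.034 and -0.044. With array weights Adamts1 was at -0.00067, Adamts12 at -0.10, Adamts9 at -0.10, Adamtsl1 at -0.13, Adamtsl4 at 0.085, Htra1 at -0.19, Htra2 at -0.035, Mmp16 at -0.11 and Timp1 at -0.13. These weights gave wild-type replicate 1 the value 0.23, against 0.78 to 2.15 for the other arrays. With each array left out, Adam12 ranged over -0.44 to 0.062, Adam33 over -0.064 to 0.12, Adamts1 over -0.25 to 0.73, Adamts12 over -0.12 to 0.35, Adamts9 over -0.078 to 0.62, Adamtsl1 over -0.11 to 0.20, Adamtsl4 over -0.25 to 0.12, Htra1 over -0.22 to 0.31, Htra2 over -0.035 to 0.18, Htra4 over -0.055 to 0.31, Mmp16 over -0.16 to 0.29 and Timp1 over -0.22 to 0.29. The cause was not tested.

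The mice were littermates, and the labels do not say whether a replicate number marks a litter, so the numbers were not treated as pairs. Deviations of same-numbered mutant and wild-type arrays from their group means correlated at -0.11, -0.026 and 0.32 over probe sets. Differently numbered arrays ranged from -0.42 (mutant replicate 2 with wild-type replicate 3) to 0.34 (mutant replicate 2 with wild-type replicate 1). These values neither establish nor exclude pairing. With the replicate block 3 members were at an unadjusted p under 0.05 and 0 passed after adjustment.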

Other observations

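The named genes whose log2 intensity ran most like that of Mmp13 over the 6 arrays were, by Pearson's r among 1617 genes with a mean log2 intensity of at least 6, Fth1 (0.996), Herpud2 (0.994), Dcaf8 (0.991), Gas6 (0.987) and Pdk2 (0.986). These values are a description chosen as the highest of many, and all the genes share the same arrays. Fth1, the heavy chain of ferritin, was at 1021, 901 and 787 in the mutant samples, against 559.9, 737 and 764 in the wild-type samples. Pdk2, a kinase that restrains pyruvate dehydrogenase, was at 126, 104 and 94.2 in the mutant samples, against 54.6, 71.2 and 77.7 in the wild-type samples. In Fth1, Herpud2 and Pdk2 the 6 arrays ranked in the same order as in Mmp13, with every mutant array above every wild-type array. These genes were picked for their likeness to Mmp13, so this order largely follows from the choice. Of all probe sets 9.18% had groups apart in this direction.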
